A study of Homo sapiens with 6 samples.

Results

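The constitutive 26S proteasome subunits were the genes whose annotated symbol is PSMA, PSMB, PSMC or PSMD followed by a number. The immunoproteasome genes PSMB8, PSMB9 and PSMB10 were left out, and each gene was read from its brightest probe set. The rule found 33 genes among the 18417 measured, 16 of the 20S core (PSMA, PSMB) and 17 of the 19S regulatory particle (PSMC, PSMD). PSMC5, PSMD7 and PSMD13 had no probe set that met the rule and were not analysed here. The cells were RPMI 8226, an established human multiple myeloma line, which stems from a cancer of antibody-secreting plasma cells. They were left unirradiated (0 Gy, 3 arrays) or given 6 Gy of carbon ions (3 arrays), a densely ionizing particle beam, and RNA was taken 1 day later. The comparison asks whether the transcripts of the protein-degrading machine differ between irradiated and unirradiated cells. The labels number the samples but do not say whether they are separate cultures, so the p-values measure only the spread between these arrays, which may be technical. All samples come from 1 cell line.

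The 26S proteasome unfolds and cuts proteins that carry ubiquitin chains. Its core is a barrel of outer rings of alpha subunits, which form the gate, and inner rings of beta subunits, of which PSMB5, PSMB6 and PSMB7 cut peptide bonds. The regulatory particle caps the barrel: its base holds a ring of ATPases that pull substrates in, and its lid holds the enzyme that removes ubiquitin. Plasma cells make large amounts of secreted protein and depend heavily on this machine, and proteasome inhibitors that bind PSMB5 are standard drugs in myeloma. The transcription factor encoded by NFE2L1 is known to raise transcription of proteasome genes together when proteasome activity falls short.

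Median deposited log2 values of the arrays ran from 5.64 to 5.72, and the number of arrays limits the precision. Of 9 measured plasma cell markers, 8 lay above the array median on every array, and the mean of the list ran from 10.44 to 10.46 unirradiated and from 10.40 to 10.45 irradiated. The exception was SLAMF7, which rose by 0.55, whereas CD38 fell by 0.42 and XBP1 by 0.23 (limma adjusted p 0.00271, 0.0127 and 0.0405). Of the lists for other cell types, 1 of 5 B cell, 2 of 6 T cell, 1 of 6 monocyte and 1 of 5 stromal markers lay above the array median on every array. Their mean levels were slightly higher on the irradiated arrays. The called B cell markers went opposite ways: MS4A1 rose by 0.54 and CR2 fell by 0.33 (limma adjusted p 0.00176 and 0.0463). TRAT1 of the T cell list and COL1A1 and COL3A1 of the stromal list also rose, and 0 monocyte markers were called. For T cell markers the mean ran from 5.30 to 5.46 unirradiated and from 5.51 to 5.70 irradiated, and for stromal markers from 4.65 to 4.68 and from 4.73 to 4.88. The part of this shift in the results below was not tested.

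Transcripts of the 26S proteasome genes under the symbol rule differed little between the groups. Only PSMA2, a gate-forming alpha ring subunit, passed the test among them. It rose by 0.25 ± 0.07 (SE) on the log2 scale or 1.19-fold. ADRM1, a base subunit outside the symbol rule, also rose, by 0.27 (limma adjusted p 0.0250), and is described further below. The other 32 members did not pass limma at a Benjamini-Hochberg adjusted p under 0.05, and 0 members fell. The 1 of 33 called members (3.03%) compares with 14.5% called among all genes, 6.35% higher and 8.18% lower. Among the 6139 brightest genes, those with a mean log2 value of at least 7.66, 22.3% were called, and 29 of the 33 members lie there. These are called the bright genes below. At an unadjusted p under 0.05, 4 members differed, all of them higher: PSMA2, PSMB5, PSMD1 and PSMD5. That is 12.1% of members, against 29.8% of all genes.

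The precision was enough to bound the differences. The median SE of a member's log2 difference was 0.07, and the differences ran from -0.13 for PSMB3 to 0.25 for PSMA2, with a median of 0.07. Without PSMA8, PSMB11, PSMD5, PSMD9 and PSMD10, which are set apart below, the median of the members was 0.05. Over all genes the median was 0.04, and over the bright genes it was -0.02. The 95% interval of the difference lay within a 1.5-fold change in either direction for all 33 members, against 92.6% of all genes.

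**Figure D1:**
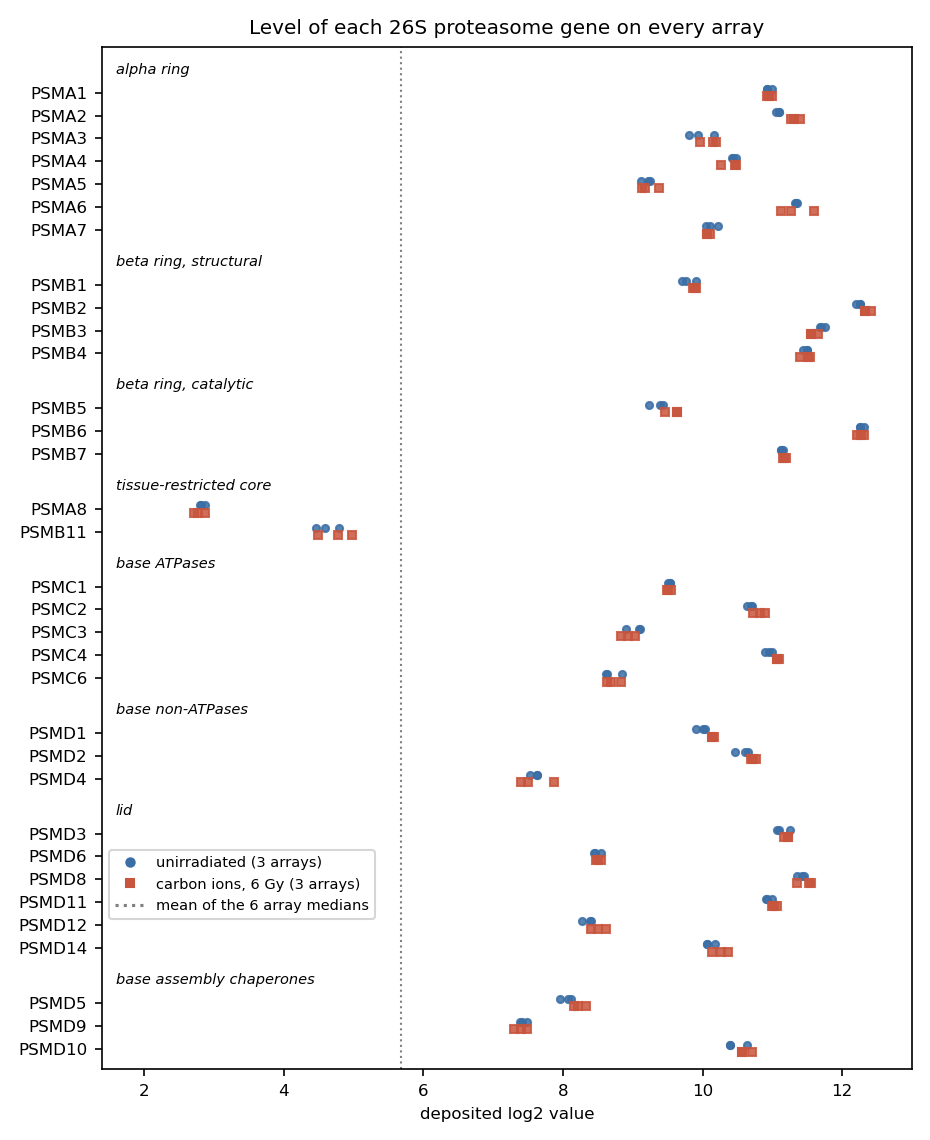
Deposited log2 value of each of the 33 genes on the 3 unirradiated (circles) and 3 irradiated arrays (squares), grouped by place in the complex, with the mean of the array medians as a dotted line. The groups lie almost on top of each other for most genes, PSMA2 being the gene whose squares lie furthest above its circles, and PSMA8 and PSMB11 lie below the array medians.

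Most members were bright. The mean level over all 6 arrays ran from 7.41 for PSMD9 to 12.30 for PSMB2, with the tissue-restricted PSMA8 and PSMB11 apart at 2.81 and 4.69. These values belong to different probe sets and are not scaled per length, so they give no order of abundance between genes. PSMA8, the alpha subunit of the testis, read 2.82, 2.87 and 2.80 unirradiated and 2.78, 2.72 and 2.88 irradiated. PSMB11, the beta subunit of the thymus, read 4.80, 4.60 and 4.46 unirradiated and 4.50, 4.78 and 4.98 irradiated. Both lay below the array medians on every array. Their log2 differences were -0.03 and 0.13, and neither passed.

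Among the 7 alpha ring genes, PSMA2 (probe set 8139232) read 11.09, 11.05 and 11.10 on the unirradiated arrays and 11.31, 11.27 and 11.39 on the irradiated arrays. Every irradiated value lay above every unirradiated value. The limma adjusted p was 0.0375, with a 95% interval of the log2 difference from 0.09 to 0.40. This call was lost with any 1 of 5 arrays left out (adjusted p up to 0.125), standing only without irradiated replicate 2, at 0.0489. It was also lost when array medians were subtracted. RefSeq lists 3 pseudogenes of PSMA2, and whether the probe set shares signal with such copies was not tested.

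The next smallest p in the alpha ring was that of PSMA3, at 9.93, 9.81 and 10.17 unirradiated and 10.15, 10.20 and 9.97 irradiated. The groups overlapped, and the log2 difference of 0.14 ± 0.10 (SE) did not pass (limma adjusted p 0.398). PSMA6 spread widely within the irradiated group. It read 11.34, 11.36 and 11.32 unirradiated but 11.27, 11.13 and 11.60 irradiated, with irradiated replicate 3 the highest and replicate 2 the lowest of all 6 arrays. Its log2 difference was -0.01, with a 95% interval from -0.25 to 0.24. The others differed by 0.00 (PSMA1), 0.03 (PSMA5), -0.04 (PSMA7) and -0.05 (PSMA4). The median of the 7 alpha ring differences was 0.00.

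PSMB5 encodes the chymotrypsin-like subunit that bortezomib blocks. It read 9.44, 9.39 and 9.23 unirradiated and 9.63, 9.63 and 9.46 irradiated, so the lowest irradiated value lay just above the highest unirradiated one. The log2 difference was 0.22 ± 0.08 (SE) and did not pass, with a limma adjusted p of 0.106 and a 95% interval from 0.04 to 0.41. It passed with an intensity trend and robust prior, at 0.0486. PSMB6, the caspase-like subunit, read 12.31, 12.26 and 12.26 unirradiated and 12.27, 12.21 and 12.31 irradiated. PSMB7, the trypsin-like subunit, read 11.15, 11.13 and 11.13 unirradiated and 11.17, 11.19 and 11.15 irradiated. Their log2 differences of -0.01 ± 0.07 and 0.03 ± 0.06 (SE) had intervals from -0.16 to 0.13 and from -0.11 to 0.17 (limma adjusted p 0.917 and 0.788).

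Of the structural beta subunits, PSMB3 was the only member with every irradiated value below every unirradiated one. It read 11.68, 11.69 and 11.76 unirradiated and 11.65, 11.55 and 11.55 irradiated. The log2 difference of -0.13 ± 0.07 (SE) did not pass (limma adjusted p 0.232). PSMB2 lay the other way, at 12.26, 12.25 and 12.20 unirradiated and 12.33, 12.32 and 12.41 irradiated, again without overlap. Its log2 difference of 0.11 ± 0.07 (SE) did not pass (limma adjusted p 0.275). PSMB1 differed by 0.09 and PSMB4 by 0.01. Both PSMB3 and PSMB2 intervals contained 0.

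In the ATPase ring of the base, PSMC2 read 10.64, 10.71 and 10.69 unirradiated and 10.73, 10.83 and 10.89 irradiated. PSMC4 read 10.99, 10.95 and 10.89 unirradiated and 11.09, 11.06 and 11.06 irradiated. In both genes the irradiated arrays lay above the unirradiated arrays, by 0.14 ± 0.07 and 0.13 ± 0.06 (SE) on the log2 scale. Neither difference passed (limma adjusted p 0.220 and 0.222). PSMC3 differed by -0.10, PSMC6 by 0.02 and PSMC1 by less than 0.01 in size. PSMC1 and PSMC6 each had a second, dimmer probe set with 1 gene symbol, whose log2 differences were 0.00 and 0.08. Which probe set of each reads the gene itself and not a copy was not tested. RefSeq lists 13 pseudogenes of PSMC1 and 3 of PSMC6. In all, 18 of the 33 members have at least 1 of 41 listed pseudogenes, among them PSMA6 with 4 and PSMD10 with 3, and values of all 18 are uncertain to that extent.

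The base scaffold subunits PSMD1 and PSMD2 were both higher on every irradiated array. PSMD1 read 10.03, 9.91 and 10.01 unirradiated and 10.17, 10.14 and 10.14 irradiated, a log2 difference of 0.16 ± 0.07 (SE) with a limma adjusted p of 0.132. PSMD2, the docking site of ubiquitin-carrying adaptors, read 10.61, 10.65 and 10.47 unirradiated and 10.72, 10.70 and 10.77 irradiated, a log2 difference of 0.15 ± 0.07 (SE) with a limma adjusted p of 0.186. Neither passed the test. PSMD4, a ubiquitin receptor of the base, read 7.63, 7.53 and 7.63 unirradiated and 7.50, 7.40 and 7.88 irradiated. Irradiated replicate 3 stood above the rest, and without it the log2 difference was -0.15 instead of 0.00 (adjusted p 0.260 in limma).

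The 6 lid genes that the symbol rule takes in had positive differences, from 0.02 for PSMD6 to 0.16 for PSMD12, and none passed. PSMD12, a scaffold subunit, read 8.27, 8.39 and 8.40 unirradiated and 8.41, 8.50 and 8.62 irradiated, a log2 difference of 0.16 ± 0.08 (SE) with a limma adjusted p of 0.204. Its groups touched without overlapping. PSMD14, the enzyme that cuts the ubiquitin chain from the substrate, read 10.07, 10.06 and 10.18 unirradiated and 10.14, 10.36 and 10.26 irradiated. Its groups overlapped, and the difference of 0.15 ± 0.08 (SE) did not pass (limma adjusted p 0.231). PSMD11 differed by 0.09, PSMD8 by 0.07 and PSMD3 by 0.07.

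PSMD5, PSMD9 and PSMD10 match the symbol rule and encode chaperones that help assemble the base and are not part of the finished particle. PSMD5 read 7.96, 8.11 and 8.08 unirradiated and 8.16, 8.21 and 8.33 irradiated, without overlap, and its log2 difference of 0.18 ± 0.08 (SE) did not pass (limma adjusted p 0.139). PSMD10, also known as gankyrin, read 10.40, 10.40 and 10.63 unirradiated and 10.56, 10.56 and 10.71 irradiated. Unirradiated replicate 3 lay inside the irradiated range, and the difference of 0.13 did not pass (limma adjusted p 0.323). PSMD9 differed by -0.03.

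**Figure D2:**
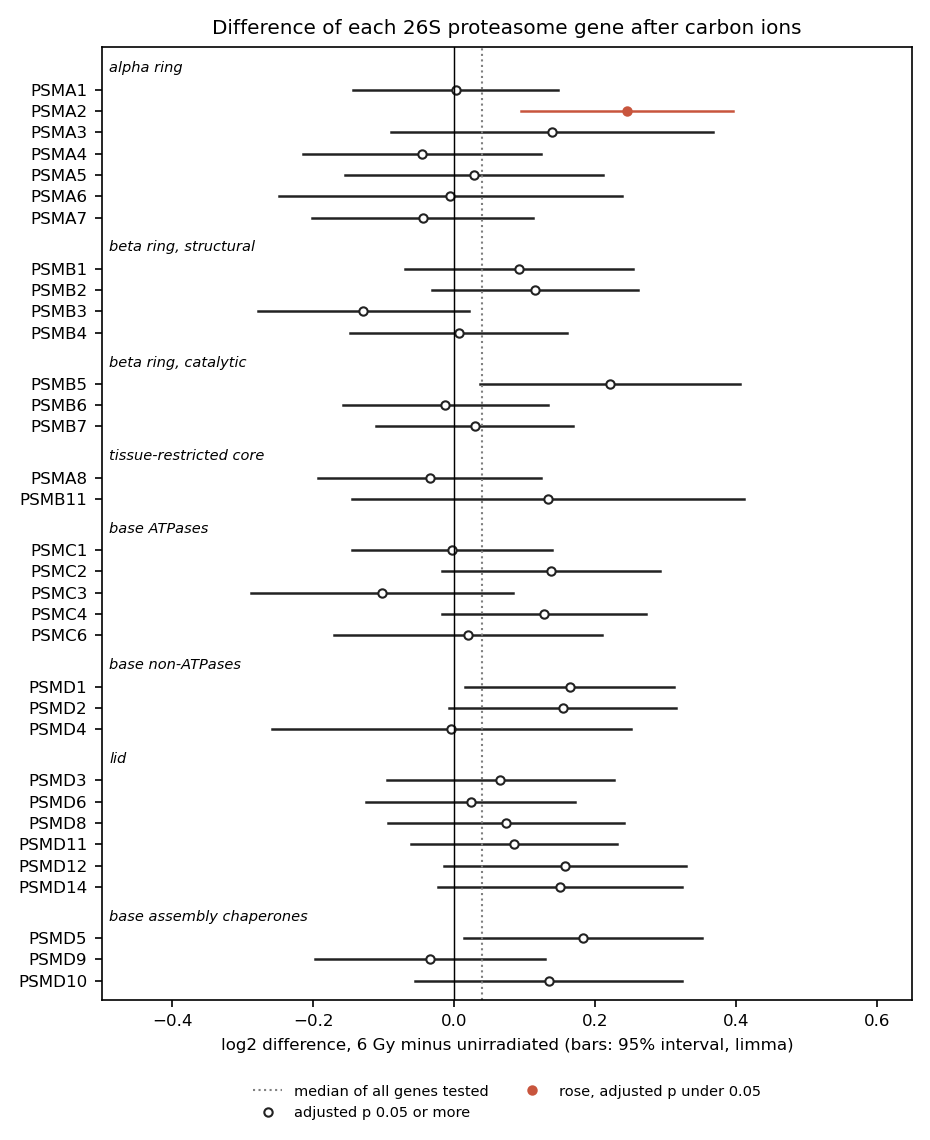
Log2 difference of each gene, irradiated minus unirradiated, with the 95% interval from limma (bars), no difference as a solid line and the median of all genes as a dotted line. PSMA2 is the filled point; the intervals of 4 genes lie wholly above 0 and 0 lie wholly below.

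The core and the regulatory particle were then set side by side. Of 17 regulatory genes under the symbol rule, which leaves out ADRM1, 0 passed the test in either direction. Positive differences were found for 13 of them, with a median over the 17 of 0.09. Of 16 core genes, 1 passed and 10 had positive differences, with a median of 0.02. An unadjusted limma p under 0.05 was found for 2 regulatory genes (11.8%) and 2 core genes (12.5%). That share was 29.8% of all genes and 38.3% of the bright genes. Among all genes 59.8% had positive differences, and among the bright genes 46.9%. The groups did not overlap for 6 regulatory genes (35.3%) and 4 core genes (25%), against 34.7% of all genes and 47.9% of the bright genes. All 6 regulatory genes and 3 of the 4 core genes were higher on the irradiated arrays. Of all 18417 genes, 3494 (19%) were higher without overlap, and of the bright genes 21.2%.

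Averaged over the 17 regulatory genes, the log2 value was 9.60, 9.61 and 9.63 on the unirradiated arrays and 9.65, 9.68 and 9.74 on the irradiated arrays. The groups did not overlap, and the means differed by 0.08. Without the chaperones PSMD5, PSMD9 and PSMD10 the group means were 9.82 unirradiated and 9.89 irradiated, also without overlap. Over the 14 core genes without PSMA8 and PSMB11 the mean log2 value was 10.82, 10.77 and 10.80 unirradiated. On the irradiated arrays it was 10.84, 10.81 and 10.87, a difference of 0.05 with overlap. Core minus regulatory was 1.22, 1.16 and 1.16 unirradiated and 1.19, 1.13 and 1.13 irradiated. The change of this mean was -0.03, with a standard deviation of 0.03 within the unirradiated arrays. The median difference of the core genes minus that of the regulatory genes was -0.07, and it was not tested. It was -0.06 without PSMA8, PSMB11, PSMD5, PSMD9 and PSMD10. A related but unlike measure, each array's median core level minus its median regulatory level, had a within-group standard deviation of 0.06. Since the members were chosen with earlier results known, no p is given for these means.

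The mean of the bright genes read 9.26, 9.27 and 9.24 unirradiated and 9.20, 9.24 and 9.22 irradiated, with overlap. Measured against it, both particles were higher on the irradiated arrays without overlap, but the bright mean itself differed by -0.035. For the core the gap was narrow, from 1.559 on unirradiated replicate 3 to 1.566 on irradiated replicate 2. The core mean taken alone overlapped between the groups. The core lay 1.54 ± 0.04 above it unirradiated and 1.62 ± 0.04 irradiated (mean ± SD, n = 3), and the regulatory particle 0.36 ± 0.04 and 0.47 ± 0.04. Irradiated replicate 3 held the highest of the 6 values for 17 of the 33 members (51.5%), against 29.1% of all genes and 18.0% of the bright genes. Without that array the median difference of the members was 0.04 in place of 0.07, and that of all genes was 0.02 in place of 0.04. The core median minus the regulatory median was then -0.11 in place of -0.07.

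**Figure D3:**
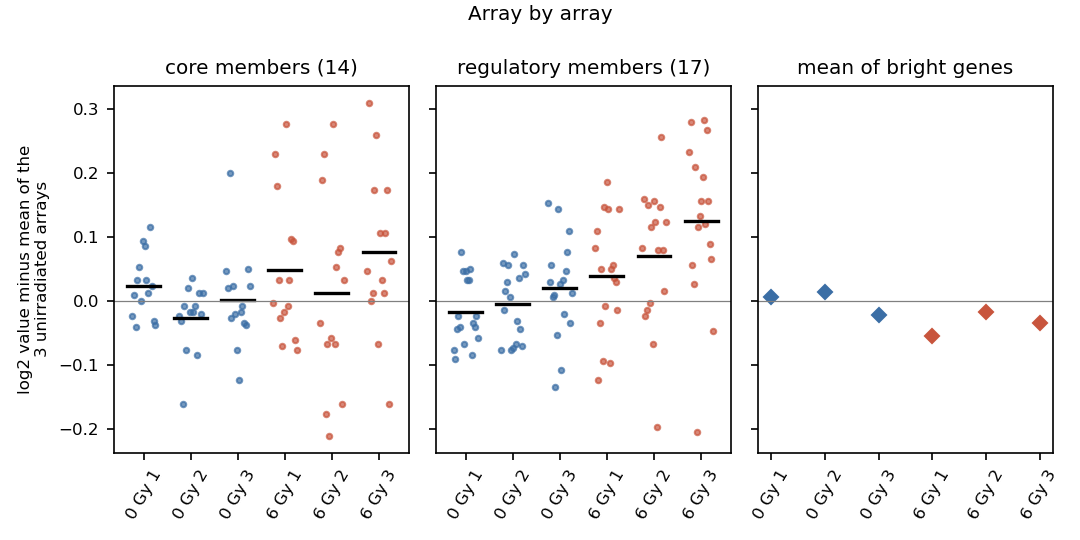
Log2 value of each gene minus its mean over the unirradiated arrays, for the 14 core genes without PSMA8 and PSMB11 and the 17 regulatory genes (points; bars are means), and the same for the mean of the bright genes (diamonds). The regulatory bars of the irradiated arrays all lie above those of the unirradiated arrays, the core bars overlap, and the diamonds shift down slightly.

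**Figure D4:**
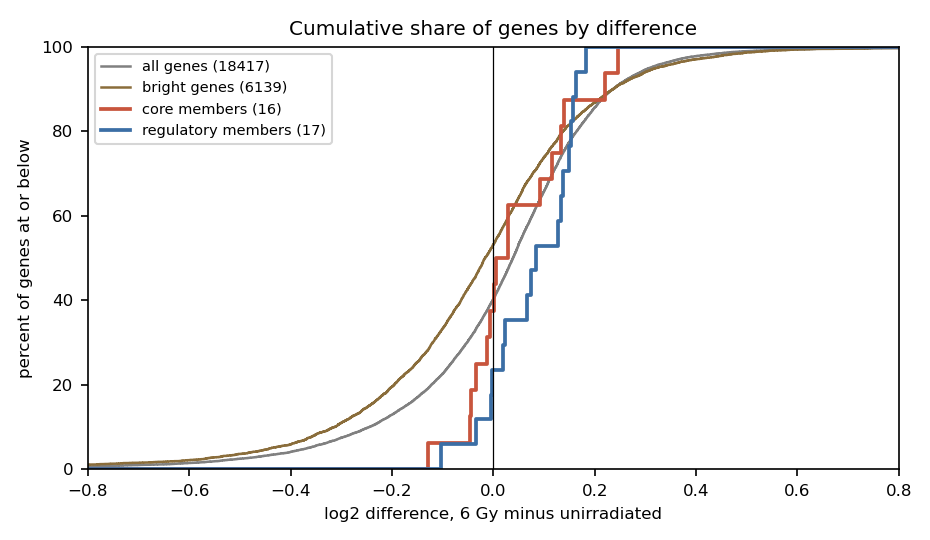
Cumulative percentage of genes at or below a given log2 difference, for all genes, the bright genes, and the core and regulatory members. The member curves are steep and span only -0.13 to 0.25, whereas the background curves spread further in both directions.

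Some partner genes, which the symbol rule leaves out, passed the test. They regulate, assemble or serve the proteasome, or encode other subunits of it (ADRM1, SEM1, PSMB8, PSMB9 and PSMB10). Of 34 such genes listed, 32 were measured, 6 rose, 3 fell and 23 did not pass. Among the called genes, ADRM1 and PSMB10 encode subunits. That is 28.1% called, against 14.5% of all genes and 22.3% of the bright genes. Whether the partners and the members of the symbol rule differ in this share was not tested. The largest difference was that of NFE2L1 (probe set 8008087), at 10.12, 10.17 and 10.10 unirradiated and 9.52, 9.53 and 9.60 irradiated. The groups were far apart: NFE2L1 fell by 0.58 ± 0.07 (SE) on the log2 scale, to 0.667 of its unirradiated level, with a limma adjusted p of 4.94e-04. It was called with any 1 array left out, with adjusted p up to 0.00396.

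AKIRIN2, an adaptor that carries proteasomes into the nucleus, read 9.24, 9.30 and 9.41 unirradiated and 9.58, 9.59 and 9.69 irradiated. It rose by 0.31 ± 0.07 (SE), with a limma adjusted p of 0.0221, lost without unirradiated replicates 1 and 2 or irradiated replicate 3 (up to 0.0869). NGLY1, the glycosidase needed to activate the NFE2L1 protein, differed by 0.13 and did not pass (adjusted p 0.240 in limma).

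ADRM1 encodes a further ubiquitin receptor of the base and does not carry a PSMD symbol. It read 10.76, 10.67 and 10.77 unirradiated and 11.01, 10.97 and 11.03 irradiated, and rose by 0.27 ± 0.07 (SE), with a limma adjusted p of 0.0250. This call stood with 1 array left out only without irradiated replicate 2 (up to 0.101 without another). SEM1, the smallest lid subunit, differed by -0.04.

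Among the alternative caps and the inhibitor, PSMF1, which encodes the core inhibitor PI31, read 11.08, 11.04 and 10.97 unirradiated and 11.26, 11.30 and 11.30 irradiated. It rose by 0.25 (limma adjusted p 0.0308). PSME3, which encodes the nuclear activator PA28-gamma, read 10.91, 10.89 and 10.93 unirradiated and 11.18, 11.11 and 11.11 irradiated. It rose by 0.22 (limma adjusted p 0.0439), and neither gene's groups overlapped. PSME4, encoding the activator PA200, which acts in the nucleus, differed by 0.20 and did not pass (adjusted p 0.0723 in limma). PSME1 and PSME2, encoding the interferon-inducible activator PA28, differed by -0.14 and -0.06 and did not pass. The calls of PSMF1 and PSME3 were lost with any 1 array left out, with adjusted p up to 0.0961 and 0.134. That of PSME3 was also lost with array medians subtracted (0.0806).

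Of the enzymes and adaptors that bind the particle, ECPAS, a scaffold that binds the proteasome, read 9.01, 9.06 and 9.0 unirradiated and 8.66, 8.67 and 8.64 irradiated. It fell by 0.37 ± 0.06 (SE) or 1.29-fold, with a limma adjusted p of 0.00491, and was called with any 1 array left out. TXNL1, a thioredoxin-like protein of the regulatory particle, read 10.04, 10.0 and 10.0 unirradiated and 10.22, 10.29 and 10.21 irradiated. It rose by 0.22 (limma adjusted p 0.0453), a call lost with any 1 array left out (up to 0.131) and with array medians subtracted (0.0730). The deubiquitinating enzymes USP14 and UCHL5 differed by 0.17 and 0.12 and did not pass. ZFAND5 differed by 0.28 (adjusted p 0.0720), UBE3C by 0.10 and PAAF1 by 0.04.

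Of the 7 measured genes that deliver substrates, UBQLN2, a shuttle that binds ubiquitin and the proteasome, read 9.12, 9.07 and 8.94 unirradiated and 9.37, 9.40 and 9.29 irradiated. It rose by 0.31 ± 0.07 (SE), with a limma adjusted p of 0.0228, and was called with 1 array left out only without unirradiated replicate 1 or irradiated replicate 3 (up to 0.0759). The unfoldase gene VCP differed by 0.14 and UFD1 by 0.22, and neither passed. The UFD1 difference was 0.05 without irradiated replicate 3. UBQLN1, UBQLN4, NPLOC4 and RAD23B differed by 0.01 to 0.05. None of the 5 core assembly genes passed. Their differences ran from -0.15 (PSMG4) to 0.11 (POMP), with PSMG1 at 0.01, PSMG2 at -0.09 and PSMG3 at -0.04. POMP, the chaperone that matures the core, read 11.45, 11.46 and 11.50 unirradiated and 11.59, 11.74 and 11.41 irradiated, with irradiated replicate 3 the lowest of all. Without irradiated replicate 2 its difference was 0.03, and without replicate 3 it was 0.20. That of PSMG4 was -0.05 without irradiated replicate 1 and -0.28 without replicate 3.

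**Figure D5:**
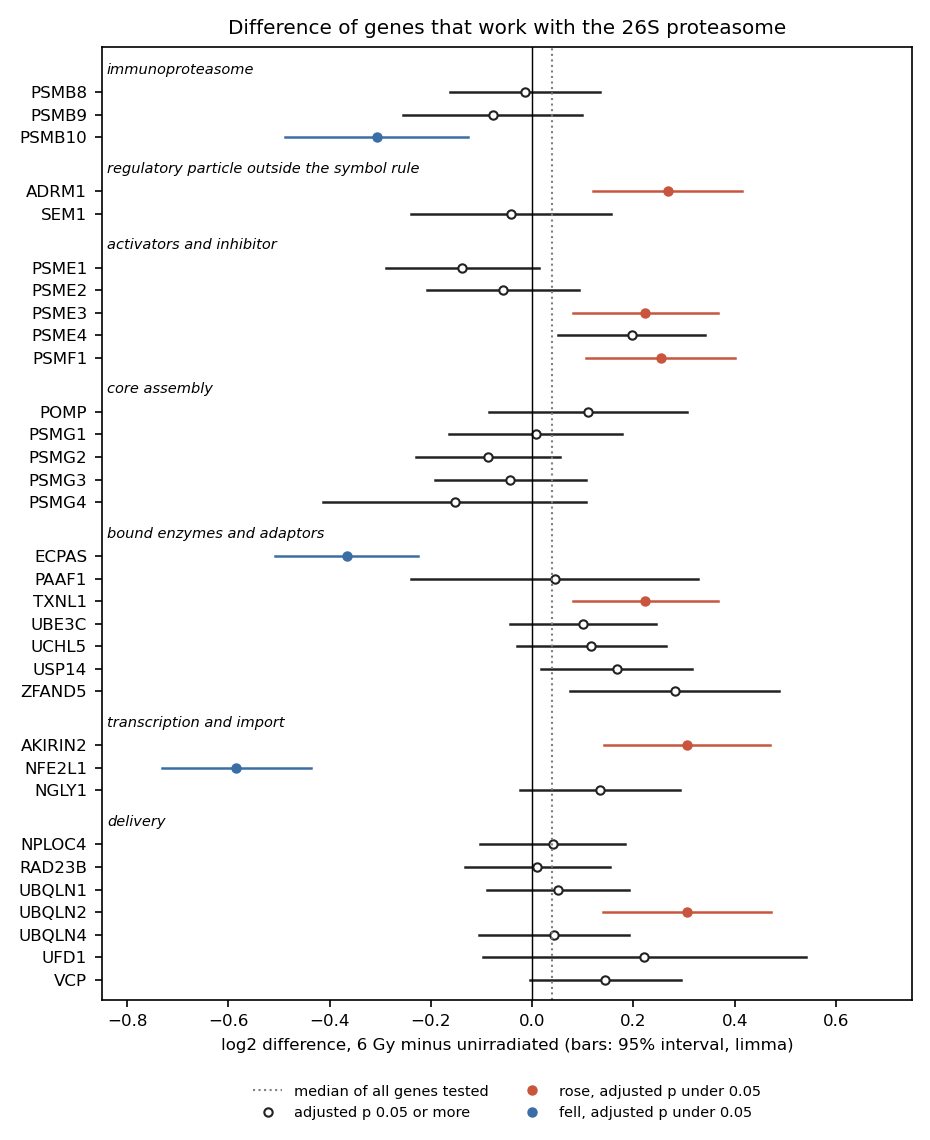
Log2 difference of the 32 measured partner genes, irradiated minus unirradiated, with 95% intervals from limma; filled points passed the test. NFE2L1, at -0.58, lies furthest from 0, and ECPAS, PSMB10 and 6 risers are the other filled points.

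Immunoproteasome subunits replace the catalytic subunits in cells exposed to interferon. PSMB10 read 7.90, 7.79 and 7.83 unirradiated and 7.56, 7.66 and 7.40 irradiated and fell by 0.31 ± 0.08 (SE), with a limma adjusted p of 0.0323 that held with 1 array left out only without irradiated replicate 2 (up to 0.110). It did not hold under quantile normalization (0.0621). PSMB9 read 8.93, 8.91 and 8.78 unirradiated and 8.76, 8.71 and 8.91 irradiated. PSMB8 read 7.79, 7.87 and 7.88 unirradiated and 7.84, 7.86 and 7.79 irradiated. Both overlapped between the groups, with log2 differences of -0.08 and -0.01.

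Each catalytic subunit was then set against its counterpart within the array, as a description. PSMB7 minus PSMB10 read 3.25, 3.34 and 3.30 unirradiated and 3.61, 3.53 and 3.75 irradiated. Its difference of 0.34 restates the fall of PSMB10, since PSMB7 itself differed by 0.03. PSMB5 minus PSMB8 read 1.65, 1.52 and 1.35 unirradiated and 1.78, 1.77 and 1.67 irradiated, also without overlap. PSMB6 minus PSMB9 differed by 0.07, with overlap. The smallest p that an exact permutation test of 3 arrays against 3 can give is 0.1, so no such test could pass.

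The sequences upstream of the genes were read from RefSeq (GRCh38.p14), 250 bases before the start, for the 28 members with an entry. PSMA7, PSMB1, PSMB6, PSMB7 and PSMD4 had none. For genes with more than 1 listed start, among them 4 members, a match at any start was counted. The sequences are shown as a description, for the element bound by NFE2L1 and for an ETS-type motif that many of the 28 hold. Whether the fall of NFE2L1 bears on the members was not tested. The element bound by NFE2L1 was searched as TGACNNNGC and TGAGNNNGC on both strands. One form or the other was present in 12 of 28 members (42.9%), against 28.1% of all genes with a RefSeq promoter and 34.3% of the bright genes. The first form was present in 6 members, and its sites in the 5 of these with 1 listed start read as follows on the gene's strand, with the motif or its reverse complement in capitals.
PSMB3 (chr17:38752622-38752660, plus strand): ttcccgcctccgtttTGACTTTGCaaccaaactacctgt
PSMD3 (chr17:39980755-39980793, plus strand): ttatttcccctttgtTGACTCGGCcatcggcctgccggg
PSMD12 (chr17:67366719-67366757, minus strand): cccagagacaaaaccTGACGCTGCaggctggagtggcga
PSMD5 (chr9:120843033-120843071, minus strand): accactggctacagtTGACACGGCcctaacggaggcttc
PSMD9, nearer site (chr12:121888673-121888711, plus strand): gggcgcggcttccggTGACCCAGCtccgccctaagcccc
PSMD9, farther site (chr12:121888626-121888664, plus strand): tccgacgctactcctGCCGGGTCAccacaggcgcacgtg

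The 12 members with either form had log2 differences from -0.13 to 0.22, with a median of 0.10. The median of the 16 members without it was 0.05. Among the bright genes the medians were -0.015 with it and -0.019 without it, and among all measured genes with a RefSeq promoter 0.03 and 0.04. This split of the members was not tested. Among the carriers, PSMB3 was lower and PSMB5, PSMC4, PSMD5 and PSMD12 higher on every irradiated array, and none of the 12 passed the test. Of the 16 without it, PSMA2, PSMB2, PSMC2, PSMD1 and PSMD2 were also higher on every irradiated array. Groups without overlap made up 34.7% of all genes and 47.9% of the bright genes. A match is a description of the letters and not evidence of binding.

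The ETS-type core, CGGAAG on either strand, was present in 17 of the 28 members (60.7%). It was present in 7 of 12 core members (58.3%) and 10 of 16 regulatory members (62.5%). Of all genes with a RefSeq promoter, 19.4% held it, and of the bright genes 37.6%. In 11 of the 17 the nearest match began within 100 bases of the start, and 6 of these are shown with the nearest match in capitals. The PSMB4 window holds another match just before it, left in lower case.
PSMB4 (chr1:151399526-151399561, plus strand): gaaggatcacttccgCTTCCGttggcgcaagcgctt
PSMC1 (chr14:90256514-90256549, plus strand): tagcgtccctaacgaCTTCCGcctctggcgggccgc
PSMC2 (chr7:103347605-103347640, plus strand): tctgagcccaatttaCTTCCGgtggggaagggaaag
PSMD6 (chr3:64023510-64023545, minus strand): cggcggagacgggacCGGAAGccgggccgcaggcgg
PSMD14 (chr2:161308381-161308416, plus strand): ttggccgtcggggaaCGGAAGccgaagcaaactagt
PSMD8 (chr19:38374539-38374570, plus strand): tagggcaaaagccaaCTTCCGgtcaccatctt

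The 17 members with the ETS-type core had a median log2 difference of 0.02 and the 11 without it a median of 0.13. Among the bright genes the medians were -0.01 with it and -0.02 without it, and among all measured genes with a RefSeq promoter 0.00 and 0.05. The split of the members was not tested. PSMA2 and PSMB5, the members with the largest differences, held no match. CCAAT, on either strand, was present in 14 members (50%). Its share was 37.0% of all genes with a RefSeq promoter, 40.4% of the measured ones and 43.4% of the bright genes. GGCGGG, also on either strand, was present in 18 members (64.3%), against 46.1%, 63.3% and 76.3% in the same order. PSMA2 held 1 match to CCAAT and 2 to GGCGGG or its reverse complement, in capitals in its 250 upstream bases.
PSMA2 (chr7:42932175-42932424, minus strand): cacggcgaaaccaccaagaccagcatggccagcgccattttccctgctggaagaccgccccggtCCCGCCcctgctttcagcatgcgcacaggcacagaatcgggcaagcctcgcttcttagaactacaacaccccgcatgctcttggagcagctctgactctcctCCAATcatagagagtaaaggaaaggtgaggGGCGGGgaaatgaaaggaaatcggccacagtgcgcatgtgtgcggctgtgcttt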

How the data were processed

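The deposited table holds 33297 probe set values for each of 6 biotin-labelled 1-colour arrays, which the authors normalized in a way that is not given in the sources used here. Deposited values were read as log2 intensities from their range (1.66 to 14.02); the base is inferred, and every fold rests on it. Probe sets with 1 annotated gene symbol (19460) were used, the brightest per gene. Groups were compared with limma 3.58.1 in R 4.3.3 over all 18417 genes with no covariate, with Benjamini-Hochberg adjustment and a threshold of 0.05; "rose" and "fell" mean calls. Steps were tested on simulated data. Intervals are 95% limma intervals. Members and lists were chosen with earlier results of these data known, and list medians carry no test. Every member is named; array values are given for called, catalytic, PSMD4 and PSMD14 genes, for the 2 smallest p per class and for chosen partners (those of PSMA6, PSMA8 and PSMB11 were added after they were seen). Tables and figures were made with matplotlib 3.10.9 and pandas 2.3.3 under Python 3.11.15. Alternatives were a replicate block, each array left out, a filter on dim genes, 2 normalizations, another variance prior, other probe set choices and 2 thresholds. One sequence is not reported here.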

Additional observations from a re-analysis of the deposited data

How the results depend on the processing

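The counts are small and move with the settings. Leaving out 1 array gave 0 to 1 called members and core members and 2 to 5 called partner genes, against 1, 1 and 9 in the main analysis. A replicate block on the sample number left 0 members, 0 core members and 4 partner genes called. Deviations of same-numbered samples correlated at -0.04, 0.10 and -0.11, so the numbers were not taken to pair the samples. With array medians subtracted, 0 members and 0 core members were called, and with an adjusted p under 0.01, 0 members, 0 core members and 2 partner genes. An intensity trend with a robust prior called 2 members, both of the core, adding PSMB5. No regulatory member was called by limma under any alternative run. NFE2L1 and ECPAS were called under all of them. No called gene reversed direction. Differences near 0 that changed sign were, with array medians subtracted, PSMA1 -0.0281, PSMA5 -0.0019, PSMB4 -0.0239, PSMB7 -7e-04, PSMC6 -0.0104, PSMD6 -0.0064, PSMG1 -0.0233, RAD23B -0.0197 and, under quantile normalization, PSMC1 0.0283, PSMD4 0.0503, PSMD9 0.0073, PSMB8 0.0536. With 1 array left out, the differences that changed sign had these ranges: PSMA1 -0.0184 to 0.0257, PSMA4 -0.083 to 0.0207, PSMA5 -0.0453 to 0.076, PSMA6 -0.1403 to 0.0946, PSMA7 -0.0852 to 0.002, PSMA8 -0.0789 to 0.0045, PSMB4 -0.0245 to 0.0477, PSMB6 -0.0347 to 0.012, PSMC1 -0.0204 to 0.0116, PSMC6 -0.0369 to 0.0898, PSMD4 -0.1477 to 0.0943, PSMD9 -0.0796 to 0.0129, PSMB8 -0.0425 to 0.0075, SEM1 -0.1056 to 0.0264, PSMG1 -0.0612 to 0.0475, PAAF1 -0.1246 to 0.1439, RAD23B -0.0053 to 0.0292.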
